A study of Mus musculus with 6 samples.

Results

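The triglyceride assembly enzymes are the acyltransferases and phosphatases that build triglyceride from glycerol-3-phosphate, represented here by Gpam, Agpat2, Agpat3, Lpin1, Lpin2, Lpin3, Dgat1, Dgat2 and Mogat1. Their probe sets were found by gene symbol, and they make up 9 of the 18193 genes that had an array probe set of their own. Their RNA was measured in the livers of 6 male mice aged 9 weeks on single-colour Affymetrix arrays, with 1 mouse per array, and every one of their 19 probe sets was examined. The 3 conditional knockouts had the genotype Alb-Cre:Keap1(flox/-), in which a Cre transgene driven by the albumin promoter recombines the single floxed copy of Keap1, the other copy being null. The 3 genetic controls, Alb-Cre:Keap1(flox/+), carried the same Cre and had a wild-type copy beside the floxed one, so where Cre acts they keep a single working allele. All 6 mice had received vehicle only, a mixture of 10% DMSO, 10% Cremophor-EL and 80% PBS. The albumin promoter restricts Cre to hepatocytes and related cells, whereas the null allele is present in every cell of the knockouts, and no Cre-negative mice were among the groups.

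Triglyceride is assembled stepwise on the endoplasmic reticulum and the outer mitochondrial membrane. A glycerol-3-phosphate acyltransferase such as GPAM adds the first acyl chain, an acylglycerol-phosphate acyltransferase (AGPAT) adds the next and yields phosphatidate, a lipin removes the phosphate to leave diacylglycerol, and DGAT1 or DGAT2 adds the last chain. Monoacylglycerol acyltransferases such as MOGAT1 enter the route at diacylglycerol by another path, and phosphatidate and diacylglycerol are also the branch points toward phospholipids. KEAP1 is the adaptor that marks the transcription factor NRF2 for degradation, so the comparison asks which of these steps differ in RNA level when hepatic KEAP1 is lost.

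NRF2 with a small Maf protein binds the antioxidant response element. The windows of 250 bases upstream of the annotated starts of the lipins are shown because the levels of these paralogues behaved differently across mice and because they hold the motif matches found among the members. They are from RefSeq, build GRCm38.p6, written 5′ to 3′ along the gene, with matches in capitals.
Lpin1, chr12:16610967-16611216, minus strand: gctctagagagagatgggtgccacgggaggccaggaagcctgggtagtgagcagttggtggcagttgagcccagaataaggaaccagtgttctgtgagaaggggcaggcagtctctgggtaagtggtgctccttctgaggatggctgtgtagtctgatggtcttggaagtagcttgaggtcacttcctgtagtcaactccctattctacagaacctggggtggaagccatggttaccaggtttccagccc
Lpin2, chr17:71183282-71183531, plus strand: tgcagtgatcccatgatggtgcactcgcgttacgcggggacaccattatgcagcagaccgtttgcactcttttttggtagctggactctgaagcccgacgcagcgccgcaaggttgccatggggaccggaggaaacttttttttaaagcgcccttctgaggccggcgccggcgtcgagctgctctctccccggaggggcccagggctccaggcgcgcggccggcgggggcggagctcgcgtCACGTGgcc
Lpin3, chr2:160880420-160880669, plus strand: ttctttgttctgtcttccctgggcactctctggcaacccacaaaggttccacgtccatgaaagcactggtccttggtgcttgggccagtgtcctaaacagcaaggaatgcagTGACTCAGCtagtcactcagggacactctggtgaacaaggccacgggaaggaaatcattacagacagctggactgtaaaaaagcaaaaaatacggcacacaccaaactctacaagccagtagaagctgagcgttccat

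Windows were at hand for 7 of the 9 genes, 11 windows in all, with 3 for Lpin2 and 2 each for Lpin3 and Gpam because of alternative starts. Dgat1 and Dgat2 had no window. The core of the antioxidant response element, TGACNNNGC searched on both strands, occurred in 1 of the 11 windows, at bases 138 to 130 upstream of the first Lpin3 start. Among all 32851 windows of this length 10.2% held it. The Lpin3 match overlaps an AP-1 site, TGACTCA, which 4.46% of all windows held. An E-box, CACGTG, stood 9 to 4 bases upstream of the first Lpin2 start, against 6.02% of all windows. The core of the sterol regulatory element, TCACNCCAC, was found in 0 of the 11 windows and in 1.05% of all. These are letter matches and were not tested as binding sites.

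Keap1 itself served as the check of the labels. Its brighter probe set had signals of 326, 151 and 214 in knockouts 3, 4 and 5 and of 786, 843 and 699.8 in controls 1, 2 and 3, a log2 difference of -1.74 (standard error 0.24, limma adjusted p = 0.0103), and the other probe set differed by -0.71 (adjusted p = 0.223). Whether either lies in the deleted part is not known here. The authors' scaling gave all arrays the same trimmed mean, and the median signal of an array lay between 114.3 and 146.1. As a measure of RNA integrity, actin signal at the 3′ end exceeded that at the 5′ end 1.58 to 1.85 times among knockouts and 1.54 to 1.90 times among controls. Hepatocyte markers were bright in all mice. Of these markers 9 of 9 measured had a higher mean in the knockouts, beside 44.4% of all probe sets tested. In 7 of them the knockouts lay above the controls without overlap, beside 9.07% of all probe sets, and 0 passed the test. Their summed signal was 219154 to 242228 in the knockouts and 189586 to 212762 in the controls. In bulk liver, a change in the number of cells of a type and a change in RNA per cell cannot be told apart. Among all 27022 probe sets tested, 410 differed between the groups at an adjusted p under 0.05 (1.52%), 217 higher (0.803%) and 193 lower (0.714%). Median centring gave 189 higher of 285 calls, or 66.3% against 52.9%. Scaling on the hybridisation controls gave 132 higher of 558, or 23.7%, and shifted the median of all probe sets by -0.16.

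None of the triglyceride assembly enzymes passed the test. All 19 probe sets entered it, and 0 had an adjusted p under 0.05, beside the 1.52% of all probe sets, while 2 had an unadjusted p under 0.05, beside 14.4% of all. Adjusted p-values ran from 0.175 to 0.883, and log2 differences from -0.63 to 0.59. In 10 probe sets the knockout mean was higher and in 9 lower, with a median of 0.11 against -0.036 over all probe sets, and the median absolute difference was 0.19 against 0.18. The knockout and control arrays did not overlap in 3 of the 19 probe sets, or 15.8%, beside 20.5% of all probe sets. Of these, 2 lay above the controls (9.07% of all) and 1 below (11.4% of all). The precision varied from gene to gene. The 95% interval of the difference lay within 1.5-fold in either direction for 7 probe sets, among them all those of Gpam, Agpat2 and Dgat2, and within 2-fold for 14.

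**Figure D1:**
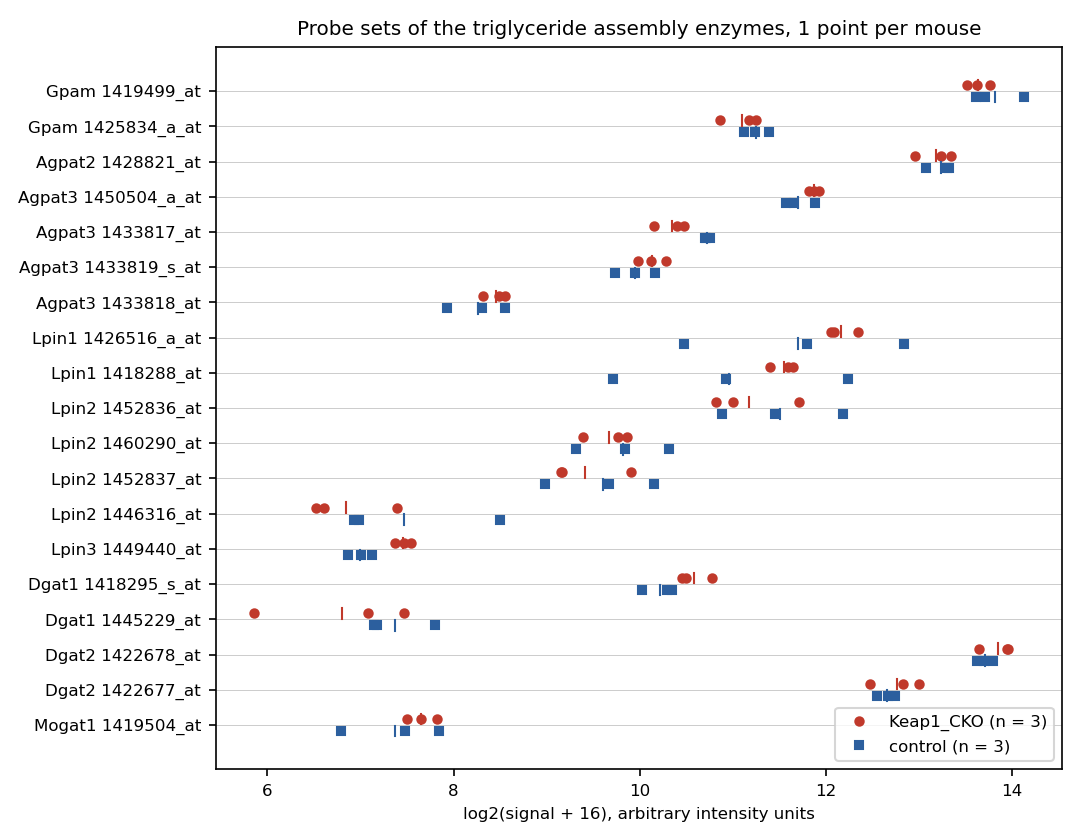
Each row is 1 probe set of a triglyceride assembly enzyme and each point 1 mouse, on an axis of log2(signal + 16); circles are the 3 knockouts, squares the 3 controls, and short lines the group means. The groups lie apart in 3 rows (Agpat3 1433817_at, Lpin3 and Dgat1 1418295_s_at), and the control points of Lpin1 are spread widely.

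Gpam encodes the mitochondrial enzyme that adds the first acyl chain and is induced by insulin through SREBP-1c. Its brighter probe set, 1419499_at, read 13868, 12635 and 11652 in knockouts 3, 4 and 5 and 17813, 13349 and 12529.9 in controls 1, 2 and 3. The groups overlapped, with control 1 above every other mouse. Knockouts differed from controls by -0.18 on the log2 scale (95% interval -0.50 to 0.13, limma adjusted p = 0.594). The dimmer probe set, 1425834_a_at, differed by -0.15 (-0.44 to 0.14), so changes beyond 1.5-fold lay outside both intervals under the main scaling. The 2 differences were -0.35 and -0.32 after scaling on the hybridisation controls, and -0.087 and -0.056 after median centring.

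The next step belongs to the AGPAT enzymes. Agpat2, whose loss causes lipodystrophy in people, had signals of 10393, 9625 and 7939 in knockouts 3, 4 and 5 and 10087, 8620 and 10235 in controls 1, 2 and 3. The control range lay inside that of the knockouts, and the log2 difference was -0.055 (95% interval -0.33 to 0.22, limma adjusted p = 0.883). Its direction depended on the processing, at 0.040 after median centring, 0.010 with array weights and 0.056 without knockout 5.

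Agpat3, a further acyltransferase of lysophospholipids, was covered by 4 probe sets that did not move in the same direction. Probe set 1433817_at read 1337, 1409 and 1121 in knockouts 3, 4 and 5 against 1658, 1711 and 1645 in controls 1, 2 and 3. All knockouts lay below all controls, whose signals were close together. Its log2 difference of -0.38 (standard error 0.12, 95% interval -0.64 to -0.12) had the lowest adjusted p of all member probe sets, 0.175 by limma, with a range of 0.0738 to 0.488 over the alternatives. The brightest probe set, 1450504_a_at, read 3730, 3602 and 3885 in the knockouts and 3018, 3218 and 3759.6 in the controls, a difference of 0.17 with overlapping groups. The remaining pair differed by 0.18 and 0.19. Of the 4 probe sets, 3 are annotated to the same sequence record, including 1433817_at. The log2 signal of 1433817_at minus that of 1450504_a_at within each array, in which a scaling of whole arrays cancels but for the offset, averaged -1.53 ± 0.22 (SD, n = 3) among knockouts against -0.98 ± 0.18 (SD, n = 3) among controls. The groups did not overlap in this value, with a mean change of -0.55 (exact permutation test, two-sided p = 0.1, the smallest that 3 mice against 3 allow). This pair was chosen after its values were seen, with 1433817_at taken for its lowest p. The permutation p therefore describes the chosen pair and does not count as a test.

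Lipins convert phosphatidate to diacylglycerol and set the split between triglyceride and phospholipid. Lpin1 is also a nuclear coactivator that rises in fasted liver and under glucocorticoids. Its probe set 1426516_a_at had signals of 5171, 4345 and 4223 in knockouts 3, 4 and 5 and of 7305, 3532 and 1409 in controls 1, 2 and 3. The knockouts were close together and sat inside the range of the controls. The other probe set, 1418288_at, read 3184, 3069 and 2687 in the knockouts and 4804, 1936 and 822 in the controls, the same picture. The highest control exceeded the lowest 5.18-fold and 5.85-fold in these probe sets, against 1.22-fold and 1.19-fold among the knockouts. The control standard deviation on the log2 scale, 1.18 and 1.26, was larger than that of 99.4% and 99.6% of all probe sets tested, while the knockout values of 0.16 and 0.13 were larger than 38.9% and 29.6%. This is a description of 3 mice a group and the spreads were not tested against each other.

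The group difference of Lpin1 therefore was imprecise. It was 0.46 for 1426516_a_at, with a 95% interval of 0.666-fold to 2.83-fold, and 0.59 for 1418288_at, with 0.695-fold to 3.24-fold (limma adjusted p = 0.699 and 0.630). It turned to -0.16 and -0.038 without control 3 and reached 1.03 and 1.22 without control 1, so 1 control mouse decides its direction.

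Lpin2, an abundant hepatic lipin, pointed lower in all 4 probe sets without a call. The brightest, 1452836_at, read 2026, 1793 and 3325 in knockouts 3, 4 and 5 and 4617, 2783 and 1869 in controls 1, 2 and 3. Control 1 was again the highest mouse and the groups overlapped widely. The log2 difference was -0.33 (95% interval -1.05 to 0.39, limma adjusted p = 0.684). The other probe sets differed by -0.15, -0.19 and -0.63. Without control 1 the differences of 1452836_at, 1452837_at and 1460290_at became 0.0088, 0.088 and 0.097, so their sign rests on that mouse.

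Lpin3, the third paralogue, was dim. Its only probe set read 161, 170.5 and 149 in knockouts 3, 4 and 5 and 100.8, 112 and 124 in controls 1, 2 and 3. Each knockout lay above each control. This amounted to 0.46 on the log2 scale (standard error 0.21, 95% interval -0.0022 to 0.92), with an adjusted p of 0.349 by limma and a range of 0.219 to 0.587 over the alternatives. Signals of this size lie close to the filter on dim probe sets, which stood at 79.0.

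**Figure D2:**
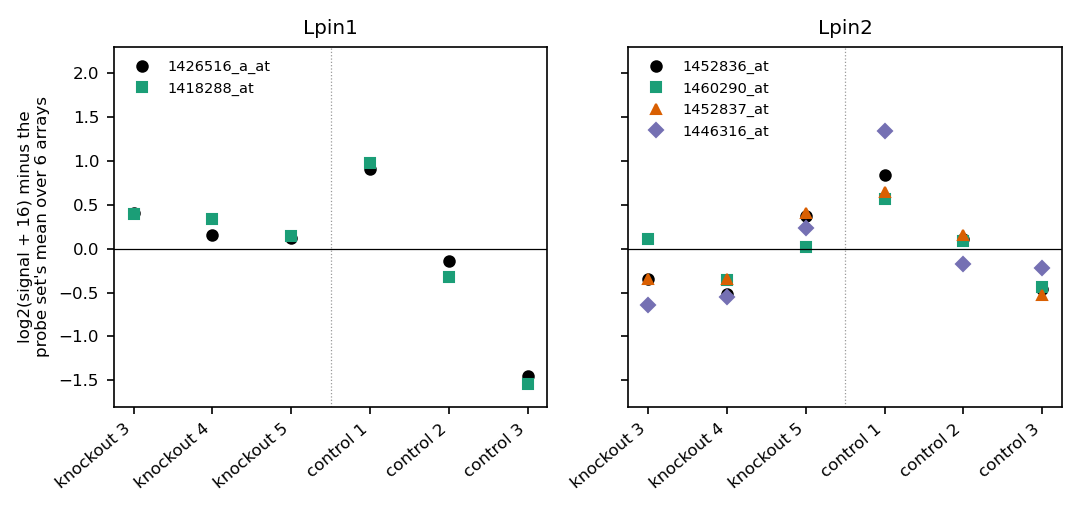
Log2(signal + 16) of each Lpin1 and Lpin2 probe set minus that probe set's mean over the 6 arrays, by mouse, with a dotted line between the knockouts and the controls. The Lpin1 probe sets move together, Lpin2 1460290_at departs from the other Lpin2 probe sets among the knockouts, and control 1 is the highest mouse for both genes while control 3 is the lowest for Lpin1.

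Among the controls, Lpin1 was highest in control 1 and lowest in control 3. This order, taken from Lpin1, held in 8 of the 19 member probe sets, beside 12.9% of all probe sets tested. The 8 were all those of Lpin1 and Lpin2 and the brighter ones of Gpam and Dgat2. The 2 of Lpin1 match by construction and the 4 of Lpin2 measure 1 gene, so the count is only a description. The same order held in 8 of 13 genes of glycerol-3-phosphate and acyl-CoA supply, 6 of 12 fasting-induced genes and 5 of 15 genes of the phospholipid branch. In the other lists it held in 3 of 12 lipogenic genes, 3 of 15 of storage and lipolysis, 1 of 5 phosphatases and lipin regulators, 1 of 7 acyltransferases of the early steps, 1 of 2 of the late steps, 1 of 8 of lipoprotein assembly and 1 of 15 regulators. Pck1, the gluconeogenic enzyme induced by fasting and named here after its values were seen, read 18388, 8607 and 6970.1 in controls 1, 2 and 3 and 4163, 5426 and 12018 in knockouts 3, 4 and 5. It thus followed Lpin1 among the controls but not among the knockouts, where Lpin1 was nearly level. Other fasting-induced genes did not follow Lpin1 among the controls. Fgf21 read 325, 300 and 834.5 and Pdk4 154, 155 and 217 in controls 1, 2 and 3, and Acot1 and Vnn1 were highest in control 2. The time of day and the feeding state of the mice are not given in the labels, and their part in these values was not tested.

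The final acylation is carried out by DGAT1 and DGAT2, which are unrelated in sequence. The Dgat1 probe set 1418295_s_at read 1389.7, 1738 and 1430.2 in knockouts 3, 4 and 5 and 1289.7, 1022 and 1234 in controls 1, 2 and 3. All knockouts were above all controls. The log2 difference was 0.36 (standard error 0.13, 95% interval 0.055 to 0.66), with an adjusted p of 0.267 by limma that was at least 0.220 under each alternative run. A far dimmer Dgat1 probe set, 1445229_at, went the other way at -0.57 with overlapping groups, and reading 42.0 in knockout 5 it was the least steady of the knockout values. Without that mouse it differed by -0.098.

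Dgat2, the main enzyme for triglyceride made from newly synthesised fatty acids, was bright in every mouse. Its brighter probe set, 1422678_at, read 15769, 15844 and 12806 in knockouts 3, 4 and 5 and 14227, 13239.5 and 12555 in controls 1, 2 and 3. The groups overlapped because knockout 5 lay among the controls. The log2 difference was 0.15 (95% interval -0.10 to 0.39, limma adjusted p = 0.588), and that of 1422677_at was 0.11 (-0.19 to 0.42). Both had the opposite sign after scaling on the hybridisation controls, at -0.019 and -0.050, and the second was -0.0015 without knockout 4.

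Mogat1, a monoacylglycerol acyltransferase known for its induction in fatty liver, had signals of 209.9, 184 and 164 in knockouts 3, 4 and 5 and 94.9, 163 and 214 in controls 1, 2 and 3. The control range enclosed that of the knockouts. Mogat1 differed by 0.28 on the log2 scale (95% interval -0.35 to 0.91, limma adjusted p = 0.693), or -0.0094 without control 1.

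**Figure D3:**
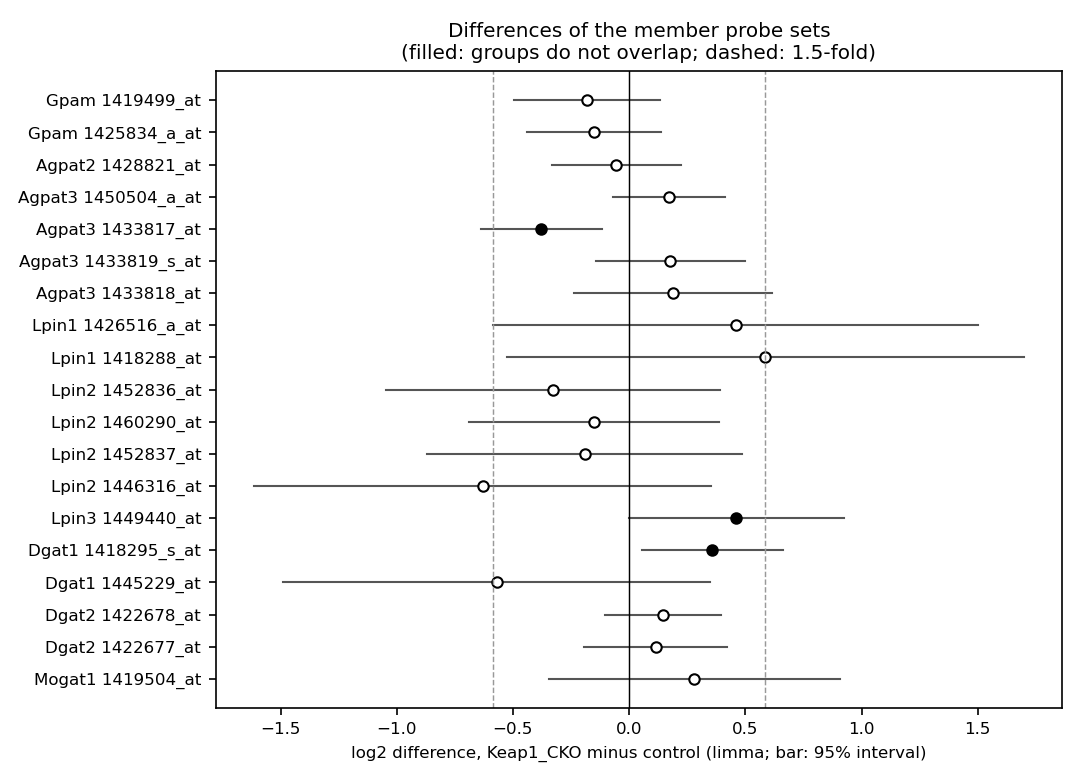
Log2 difference between knockouts and controls for each member probe set, as a point with its 95% interval from limma; filled points mark the 3 probe sets whose groups do not overlap and dashed lines mark 1.5-fold. The intervals of Gpam, Agpat2 and Dgat2 stay between the dashed lines, and those of Lpin1 and Lpin2 cross them.

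The genes around the enzymes gave a mixed picture, with 11 of 104 related genes tested past the threshold, 5 higher and 6 lower. Among all 13027 genes, each by its brightest tested probe set, 1.85% passed, 0.975% higher and 0.875% lower, with a median log2 difference of -0.017. The related lists were chosen with earlier results of these data known, so these counts are descriptions.

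Among the acyltransferases outside the members, 1 passed the test. Mogat2, the monoacylglycerol acyltransferase best known from intestine, read 200.8, 181 and 279.5 in knockouts 3, 4 and 5 and 39.8, 46.0 and 91.4 in controls 1, 2 and 3. All knockouts stood above all controls, whose mean signal of 59.1 was below the filter. Mogat2 differed by 1.70 (standard error 0.31, limma adjusted p = 0.0338). It entered the test through the knockouts alone, and without a filter its adjusted p was 0.0773, so its call rests on the filter. Tmem68, the only other measured gene of its list, differed by -0.026. Of the other glycerol-3-phosphate and lysophosphatidate acyltransferases 0 of 7 passed, with a median of 0.13. Gpat3, an enzyme of the first step that is prominent in fat tissue, read 1349, 925 and 891 in the knockouts and 207, 643 and 220.0 in the controls, with no overlap. Its difference of 1.69 had an adjusted p of 0.0722 by limma and passed only without control 2 (2.197, adjusted p = 0.00258). Agpat5, a lysophosphatidate acyltransferase, differed by 0.41 (adjusted p = 0.237) in its brightest probe set and by 0.00011 and -0.41 in the others. Of the other phosphatidate phosphatases and regulators of lipin 0 of 5 passed, with a median of 0.14. By brightest probe set, the largest differences there were those of Plpp1, a membrane lipid phosphatase, at 0.18, with 0.63 in another probe set (adjusted p = 0.205), and of Ctdnep1, the phosphatase that activates lipins, at 0.15, or -0.013 after scaling on the hybridisation controls.

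In the supply of acyl chains and glycerol-3-phosphate, 1 of 13 genes rose and 1 fell, with a median of -0.23. Cd36, which takes up fatty acids, read 5371, 6577 and 4151 in knockouts 3, 4 and 5 and 614, 1987 and 615 in controls 1, 2 and 3 in its brightest probe set. Every knockout exceeded every control, among which control 2 was the highest. Cd36 differed by 2.51 (standard error 0.40, limma adjusted p = 0.0191), and all 3 probe sets of the gene rose. Acsl3, an acyl-CoA synthetase of lipid droplets, was lower by a log2 value of -1.14 (adjusted p = 0.0245), with signals of 333, 368 and 431 in the knockouts and 1079, 852.5 and 654 in the controls. Its other probe sets differed by -1.05 and -0.97 without passing.

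Among the transcriptional regulators 1 of 15 rose and 1 fell, with a median of -0.13. Pparg, the nuclear receptor that drives fat storage genes such as Cd36 and Mogat1, read 419, 491 and 416.5 in knockouts 3, 4 and 5 and 141, 233 and 133 in controls 1, 2 and 3. The groups did not overlap, and the difference amounted to 1.35 on the log2 scale (standard error 0.22, limma adjusted p = 0.0210). Insig1, which holds SREBP in the endoplasmic reticulum, fell, with a log2 difference of -1.22 (adjusted p = 0.0493), nearest to the threshold among the 11 genes. Adipocyte markers were examined beside these genes because fat cells express Pparg, Cd36 and Gpat3. Of the list 4 of 7 had a probe set and 0 passed. Their summed signal was 816 to 949 in the knockouts and 711 to 759 in the controls, without overlap. Both tested markers had a higher mean in the knockouts, Retn at 251 against 170.1 (log2 difference 0.62) and Fabp4 at 596 against 509 (0.22), each with overlapping groups. The defining markers Adipoq and Lep were below the filter, with mean signals of 28.4 and 17.1 in the knockouts against 35.7 and 14.4 in the controls. Kupffer cell markers, of which 0 of 8 passed, summed to 12171 to 15951 in the knockouts and 8871 to 15208 in the controls. Marco differed most among them, at 1.40 without overlap (limma adjusted p = 0.120), and 3 of the 8 had a negative difference. Endothelial markers, of which 0 of 6 passed, summed to 5469 to 5834 in the knockouts and 5330 to 5417 in the controls, without overlap. That separation rested on Lyve1, which read 739, 705 and 1394 in knockouts 3, 4 and 5 and 238, 332 and 582 in controls 1, 2 and 3. Lyve1 differed by 1.29 (limma adjusted p = 0.117) and was the only marker of the list without overlap. Of the 6, 4 had a negative difference. Control 2, the control nearest to the knockouts for Pparg, Cd36 and Gpat3, had the highest sum of cholangiocyte markers. It was 1495 there, 358 and 805 in controls 1 and 3 and 318 to 588 in the knockouts, and 0 of 3 tested passed. Krt7, Krt19 and Cldn7 were highest in control 2, and Epcam and Sox9 in control 3. The part of any of these cell types in the differences of Pparg, Cd36 and Gpat3 was not tested.

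In the lipogenesis list, which holds genes of fatty acid synthesis and of steps around it, 3 of 12 genes fell and 0 rose, with a median of -0.78. The knockout mean was lower in 11 of 12, while over all genes it was higher in 47.2%. In 7 of the 12 the knockouts lay below the controls without overlap, beside 11.4% of all probe sets. Acly, which makes cytosolic acetyl-CoA, fell, with a log2 difference of -1.28 (limma adjusted p = 0.0304). So did Pklr, the liver pyruvate kinase, at -1.02 (adjusted p = 0.00564), and the elongase Elovl5 at -0.83 (adjusted p = 0.0327). Of their tested probe sets 3 of 4 passed for Acly, 2 of 3 for Pklr and 2 of 2 for Elovl5, and all were lower. Fasn, Acaca and Scd1, named here after their values were seen, did not pass. They differed by -1.03, -0.72 and 0.015 (limma adjusted p = 0.122, 0.247 and 0.973). Of the 9 enzymes, 6 had a higher knockout mean in their brightest probe set and 3 a lower one, most of them with overlapping groups. Whether the lists differ from each other was not tested.

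**Figure D4:**
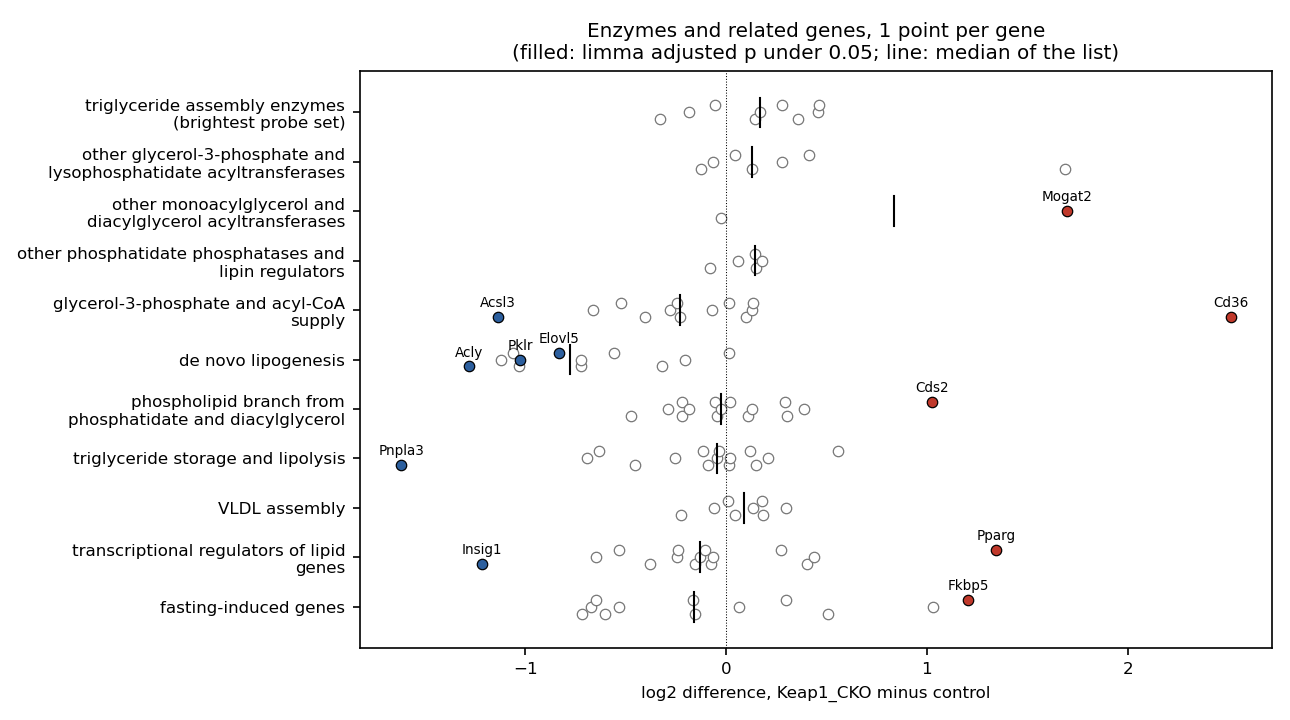
Log2 difference between knockouts and controls for each tested gene, 1 row per list, with filled points for genes past an adjusted p of 0.05 and a line at the median of the list. The enzymes in the top row lie between -0.33 and 0.46 with no filled point, and the lipogenesis row lies mostly to the left of 0.

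Of the genes that draw phosphatidate and diacylglycerol into phospholipids, 1 of 15 tested rose and 0 fell, with a median of -0.023. Cds2 makes CDP-diacylglycerol from phosphatidate, the same substrate that the lipins use. Its brightest probe set read 5764, 6015 and 5325 in knockouts 3, 4 and 5 and 2953, 2943 and 2487 in controls 1, 2 and 3. All knockouts were above all controls, with little spread in either group. The fold was 2.04, or 1.03 on the log2 scale (standard error 0.11, limma adjusted p = 0.00196), and all 6 probe sets of the gene rose, by 0.72 to 1.05.

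Downstream of assembly, 1 of 15 genes of triglyceride storage and lipolysis fell, with a median of -0.043. It was Pnpla3, which sits on lipid droplets and is induced by feeding, at 206, 307.5 and 143 in knockouts 3, 4 and 5 and 661, 696 and 669 in controls 1, 2 and 3 (log2 difference -1.62, standard error 0.23, limma adjusted p = 0.0131). In the assembly of very low density lipoprotein, which exports triglyceride, 0 of 8 passed, with a median of 0.092 and the largest differences by brightest probe set at 0.30 for Arf1, whose other probe sets differed by 0.035 and -0.058, and -0.22 for Sar1b, both involved in vesicle traffic. Of the fasting-induced genes 1 of 12 rose, the glucocorticoid target Fkbp5 at 1.205 (adjusted p = 0.0141), with a median of -0.16. The other tested Fkbp5 probe set differed by 0.90 without passing (limma adjusted p = 0.0971).

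By their brightest probe sets, Cds2, Pklr and Fkbp5 passed without each of the 6 arrays in turn. Pnpla3 did not pass without control 2 or knockout 3 (limma adjusted p = 0.0508 and 0.0557). Cd36 did not without controls 1 and 3 or knockouts 3 and 4 (0.0648, 0.0654, 0.0748 and 0.0550), and Acsl3 not without controls 1 and 2 or knockouts 3 and 4 (0.0704, 0.0827, 0.1004 and 0.0624). Elovl5 was lost without controls 1 and 2 or knockouts 3 and 5 (0.114, 0.115, 0.131 and 0.0944), and Acly without controls 1, 2 and 3 or knockouts 3 and 5 (0.106, 0.0969, 0.0529, 0.115 and 0.0579). Mogat2 passed only without control 3 and was lost without controls 1 and 2 and knockouts 3, 4 and 5 (0.0995, 0.105, 0.120, 0.0638 and 0.113). Pparg passed only without control 2 and was lost without controls 1 and 3 and knockouts 3, 4 and 5 (0.0729, 0.0624, 0.0840, 0.0680 and 0.0554). Insig1 passed in none of these runs (0.0581 to 0.125). Without the variance trend Cds2 alone of the 11 passed (adjusted p = 0.0389), without a filter Mogat2, Acly, Elovl5 and Insig1 did not, and after median centring Acsl3, Acly, Elovl5 and Insig1 did not. With robust eBayes Cd36, Acly and Insig1 did not pass (adjusted p = 0.0833, 0.0568 and 0.0845), and Insig1 was also lost at an offset of 1 and after quantile and cyclic loess normalization (0.0518, 0.0504 and 0.0544).

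**Figure D5:**
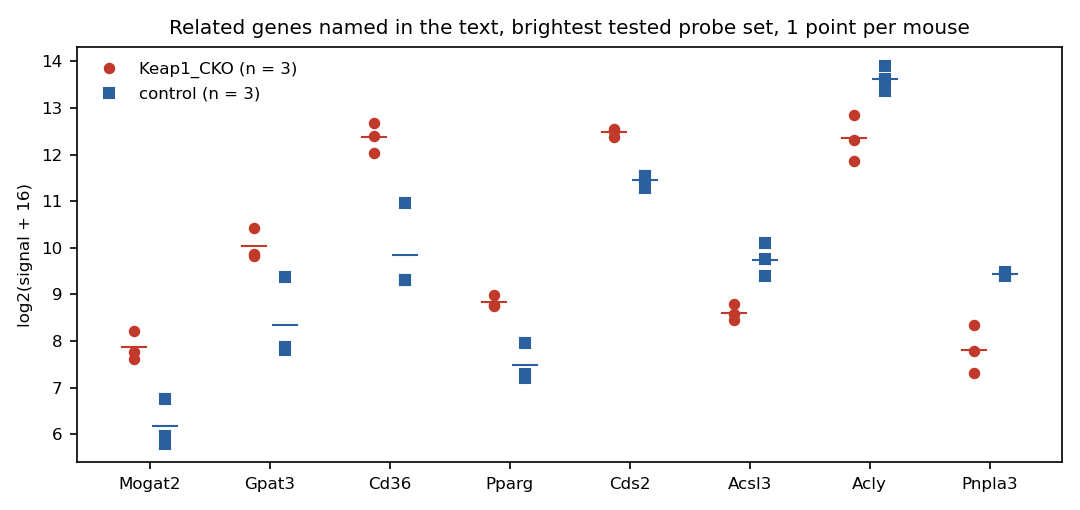
Log2(signal + 16) of 8 related genes in each mouse, with circles for the 3 knockouts, squares for the 3 controls and lines for the group means. Knockouts lie above the controls for Mogat2, Gpat3, Cd36, Pparg and Cds2 and below them for Acsl3, Acly and Pnpla3, with control 2 nearest to the knockouts for Gpat3, Cd36 and Pparg.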

How the data were processed

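The deposited values are linear array intensity, 1 per probe set and array, scaled by the authors so that a mean trimmed by 2% at each end is the same on every array. Per the labels' protocols, RNA was primed with T7-oligo(dT) and amplified as labelled cRNA. Neither the summarising software nor a genome build is named in the sources used here. Of 45101 probe sets, 64 were controls, 34945 had 1 gene symbol in the platform annotation, 932 several and 9160 none. Only those with 1 symbol were given a gene name.

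Values were taken as log2(signal + 16), which understates changes of dim genes. Probe sets at or above the 40th percentile of the mean were fitted using limma's lmFit and trended eBayes (limma 3.58.1, R 4.3.3), two-sided. All 27022 p-values were adjusted by Benjamini-Hochberg, at a threshold of 0.05. "Rose" and "fell" mean past that threshold. Every member probe set is given. Related lists are represented by each gene's brightest tested probe set, naming at most 4 genes past the threshold or, if there were none, the 2 that differed most. The members and lists were chosen with earlier results of these data known. The number of arrays limits the precision. Labels number the knockouts 3 to 5 and the controls 1 to 3, which does not pair mice. The labels describe each array as 1 mouse, so p-values reflect the spread between these mice. Alternatives changed the filter, offset, scaling, variance model, weights and probe sets used, or left out 1 array.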

Additional observations from a re-analysis of the deposited data

How the results depend on the processing

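Over 19 alternatives, 0 member probe sets passed the threshold in any, and the lowest adjusted p of a member was 0.0738 (limma), for Agpat3 1433817_at after scaling on the hybridisation controls. Of 345 member values under these alternatives, 12 had the opposite sign, in 9 probe sets. For Agpat2 these were 0.040 after median centring, 0.010 with array weights and 0.056 without knockout 5. For Dgat2 they were -0.050 and -0.019 after scaling on the hybridisation controls, which also turned Ctdnep1 to -0.013, and -0.0015 without knockout 4. Without control 1 they were -0.0094 for Mogat1 and 0.0088, 0.088 and 0.097 for Lpin2, and without control 3 -0.038 and -0.16 for Lpin1. Leaving out each array in turn gave -0.14 to 0.056 for Agpat2, -0.0015 to 0.26 for Dgat2 1422677_at, -0.0094 to 0.52 for Mogat1, -0.038 to 1.22 and -0.16 to 1.03 for Lpin1, and -0.64 to 0.0088, -0.50 to 0.088 and -0.41 to 0.097 for Lpin2 1452836_at, 1452837_at and 1460290_at. Of all probe sets, 271 passed without a filter and 105 without the variance trend, 258 genes passed with 1 probe set per gene, and 158 to 297 probe sets passed without 1 array, against 410. Of the related genes, 7 passed without a filter, 7 after median centring, 1 (Cds2) without the variance trend and 3 to 9 without 1 array, against 11. The lower counts without an array come with fewer samples; the cause of the others was not tested. No paired analysis was possible because the groups share only the replicate number 3. Lpin3, Mogat1 and the dimmest probe sets of Lpin2 and Dgat1 lie near the filter, where differences are least precise.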
